A study of Mus musculus with 6 samples.

Results

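The genes described are 9 molecules by which blood cells hold on to vessel walls and by which endothelial cells hold on to each other: Vcam1, Icam1, Icam2, Sele, Selp, Selplg, Pecam1, Cdh5 and Esam. They were chosen by name, each as the probe set annotated with that single gene symbol and, for the gene with several probe sets, the one with the highest mean over the 6 arrays. All 9 were found among the 22180 genes measured this way. The study asked what a reduced dose of Pals1, a scaffold of the apical Crumbs polarity complex encoded by Mpp5, does to the mouse kidney. Whole-kidney RNA of mice aged 4 weeks was hybridised to 1 single-colour Affymetrix array per sample, 3 of them Cre-negative and 3 Cre-positive by their titles. The labels describe all mice together as a Pals1/Mpp5 cKO line (a conditional knockout, named as C56Bl/6) crossed with Six2-Cre transgenic mice, on a mixed background and without treatment. They give neither the number of conditional Mpp5 alleles in any sample nor whether a sample is a single mouse. Six2-Cre acts in the progenitors of nephron epithelia, from which endothelial cells and leukocytes do not descend.

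Leukocytes leave the blood in steps. Selectins on activated endothelium catch carbohydrate ligands on the leukocyte and let it roll, and Vcam1 and Icam1 then bind leukocyte integrins and arrest it. The cell passes between endothelial cells that are joined by Pecam1, VE-cadherin (Cdh5) and Esam. In many vascular beds inflammatory cytokines acting through NF-kappaB raise Vcam1, Icam1 and the selectins, whereas Icam2, Pecam1, Cdh5 and Esam are made by resting endothelium. In the kidney Vcam1 is not only endothelial, since injured tubule cells and stromal cells can make it as well.

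RefSeq promoter windows (GRCm38.p6) were at hand for 3 of the 9 genes, Icam1, Sele and Selp. Those of Icam1 and Sele are shown because both belong to cytokine-inducible adhesion genes while only the Icam1 transcript passed the test between groups below. The 250 bases before the annotated start lie at chr9:21015690-21015939 for Icam1 and at chr1:164047984-164048233 for Sele, both on the + strand. Capitals mark matches to the motifs searched on both strands.
Icam1: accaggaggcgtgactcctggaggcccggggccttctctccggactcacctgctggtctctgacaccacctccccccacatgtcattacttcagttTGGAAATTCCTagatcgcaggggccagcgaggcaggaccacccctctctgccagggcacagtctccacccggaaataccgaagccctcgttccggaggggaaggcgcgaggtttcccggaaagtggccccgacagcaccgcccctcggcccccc
Sele: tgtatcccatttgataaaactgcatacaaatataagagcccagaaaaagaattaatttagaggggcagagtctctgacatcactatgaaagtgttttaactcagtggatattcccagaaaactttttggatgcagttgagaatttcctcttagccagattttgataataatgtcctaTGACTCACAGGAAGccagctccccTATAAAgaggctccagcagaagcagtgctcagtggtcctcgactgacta
The Icam1 window held the relaxed kappaB consensus, TGGAAATTCC, ending 145 bases before the start. The overlapping bases matched it on the other strand too. That form occurred in 6.94% of 32851 such windows, and the classical kappaB consensus, which occurred in 7.25%, was in none of the 3. The Sele window held an AP-1 motif (TGANTCA, in 6.75% of windows) next to an ETS motif (CNGGAAG, 26.6%) and a TATAAA box (12.4%). The Selp window held TGATTCA, an AP-1 match, ending 133 bases before the start. The relaxed form was added to the search after the Icam1 window had been seen, and no kappaB form was added for Sele or Selp. The lack of a kappaB match in their windows therefore does not show that such sites are missing. A match describes letters, not binding.

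Over all genes, array medians lay between 5.55 and 5.64, and correlations between arrays were 0.9898 to 0.9947 within groups and 0.9727 to 0.9752 between groups. Mpp5 was lower in the Cre-positive arrays by -0.61 (limma adjusted p = 0.00232), although whether its probe set covers the deleted exons is not given in the sources used here. Xist was high in 2 of 3 Cre-negative arrays (replicates 1 and 2) and in 0 of 3 Cre-positive arrays, so the groups were not balanced for sex. Adrenal transcripts were present in Cre-negative replicate 2 (a list mean of 10.3 against 4.27 to 4.46 in the other arrays) and skeletal muscle transcripts in Cre-positive replicate 2 (7.33 against 4.92 to 5.16). Results that rest on these arrays are therefore also given against Cre-negative replicate 3, the male control, or without both replicates numbered 2.

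The 9 genes did not move together (plot of levels in each array). Vcam1, Icam1 and Selplg rose, Icam2, Cdh5 and Esam fell, and Selp, Sele and Pecam1 did not pass the test. Values are log2 after RMA, a difference is Cre-positive minus Cre-negative ± SE with n = 3 arrays per group, and a gene is said to have risen or fallen at limma adjusted p under 0.05 over all 22180 genes. The 3 rises stand against 10.7% of all tested genes called higher, and the 3 falls against 11.1% called lower. Together these 6 of 9 stand against 21.8% of all genes called. For 7 of the 9 genes no Cre-positive value lay among the control values, with 4 higher and 3 lower. Over all genes such separation was seen for 38.5%, with 18.6% higher and 19.9% lower in Cre-positive arrays. The median difference of the 9 was -0.0048, and that of all genes -0.01. For each single gene an exact permutation test of 3 against 3 arrays cannot give a p below 0.10. As the samples are whole kidney, fewer cells of a type and less RNA per cell cannot be told apart.

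**Figure D1:**
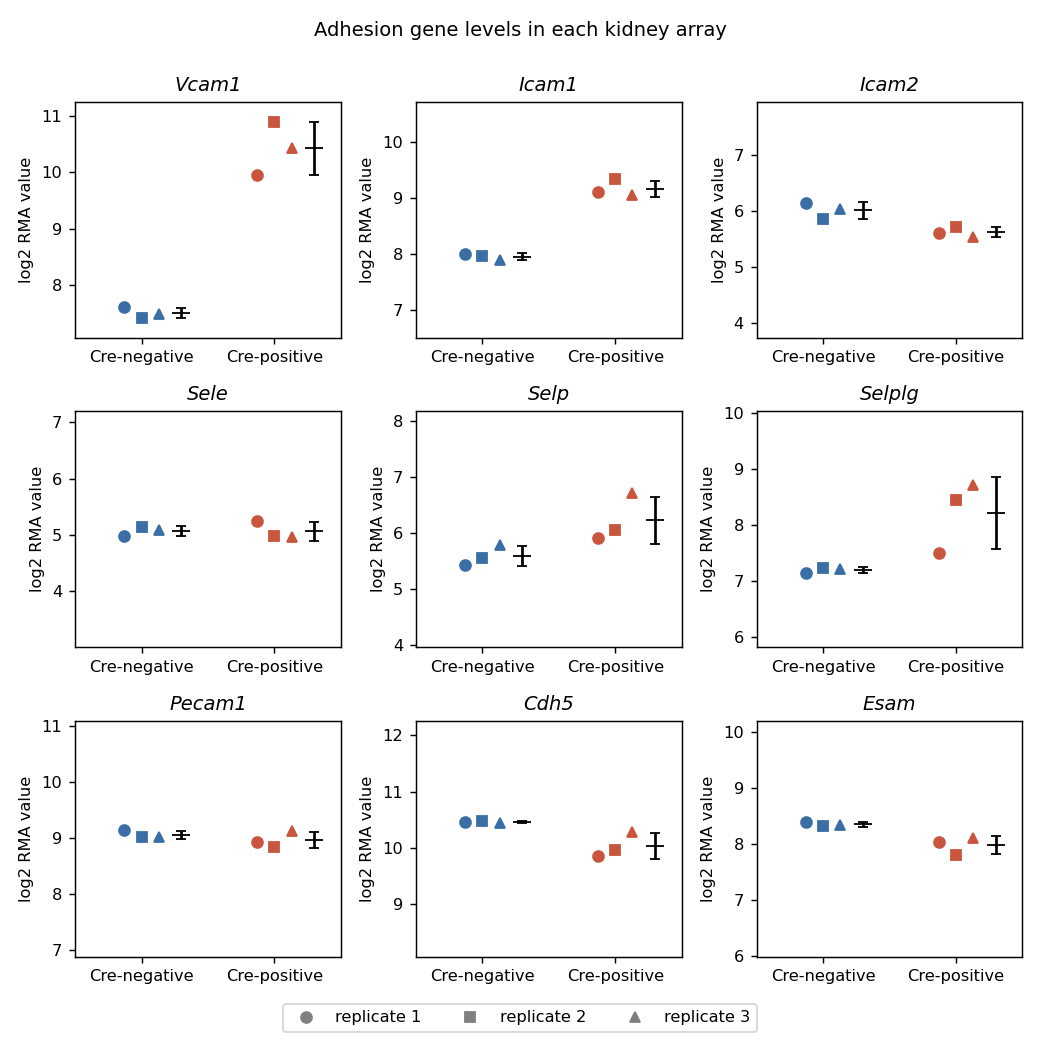
Log2 RMA value (vertical axis, the same span of 4.2 in every panel) of the 9 genes in 3 Cre-negative (blue) and 3 Cre-positive (red) kidney arrays. Marker shape gives the replicate, and black bars show the group mean and SD. Vcam1 stood at 9.96 to 10.90 in Cre-positive arrays and at 7.42 to 7.60 in Cre-negative arrays, whereas the groups overlapped for Sele and Pecam1.

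Vcam1, the endothelial ligand of the integrin alpha4beta1 (probe set 17409649, Entrez gene 22329), had the largest difference of the 9. Its level was 7.60, 7.42 and 7.47 in Cre-negative replicates 1 to 3 and 9.96, 10.90 and 10.43 in Cre-positive replicates 1 to 3. The highest control thus lay more than 2 log2 units below the lowest Cre-positive array, and the Cre-positive arrays varied more (SD 0.47) than the controls (SD 0.09). The difference was 2.94 ± 0.21, a 7.65-fold rise (95% interval 5.45 to 10.7, limma adjusted p = 0.000134), the 18th largest rise of the 22180 genes. Against the male control array alone it was 2.96 (limma adjusted p = 0.0036 with sex as a second factor), and without both replicates numbered 2 it was 2.66 (adjusted p = 0.00346).

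Icam1, which binds the leukocyte beta2 integrins LFA-1 and Mac-1 (probe set 17515074, Entrez gene 15894), rose 2.31-fold. It stood at 8.01, 7.97 and 7.89 in Cre-negative and at 9.10, 9.33 and 9.06 in Cre-positive arrays. Both groups were tight, with SDs of 0.06 and 0.15, and did not overlap. The difference was 1.21 ± 0.10 (limma adjusted p = 0.000235), and 1.27 against the male control array (adjusted p = 0.00478 with sex as a second factor). Without both replicates numbered 2 it was 1.13 (adjusted p = 0.00838). Of the 9 genes, Vcam1 and Icam1 were the ones whose call held under each of the 16 other settings tried.

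Icam2, a second ligand of LFA-1 that resting endothelium carries (probe set 17270877), was at 6.15, 5.86 and 6.03 in Cre-negative and at 5.61, 5.72 and 5.54 in Cre-positive arrays. Its groups did not overlap, and it fell by 0.39 ± 0.10 on the log2 scale, or by 23.5% (limma adjusted p = 0.0328). The call held without Cre-negative replicate 2, and not when any other single array was left out (adjusted p = 0.0513 to 0.118). The log ratio of Icam1 to Icam2 within an array was 1.86 to 2.11 in controls and 3.49 to 3.61 in Cre-positive arrays. It differed by 1.60 between the groups, with an exact two-sided permutation p = 0.10.

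The selectins were less clear. Selp encodes P-selectin, which endothelial cells and platelets store in granules and put on their surface when activated (probe set 17218845). Its level was 5.43, 5.55 and 5.79 in Cre-negative and 5.91, 6.06 and 6.71 in Cre-positive arrays. The groups did not overlap, but the highest control lay close to the lowest Cre-positive array. The difference of 0.63 ± 0.21 did not pass (limma adjusted p = 0.0639), and its interval ran from 0.16 to 1.11. Without Cre-positive replicate 1 it passed (0.79, adjusted p = 0.0366), and without Cre-positive replicate 3 it was 0.39. Against the male control array the difference was 0.43 (limma adjusted p = 0.448 with sex as a second factor). Without both replicates numbered 2 it was 0.69 (adjusted p = 0.209).

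Sele encodes E-selectin, which endothelium makes after cytokine stimulation (probe set 17218820). It stood at 4.97, 5.14 and 5.08 in Cre-negative and at 5.25, 4.98 and 4.95 in Cre-positive arrays. The groups overlapped, and the difference was -0.0048 ± 0.11 (interval -0.25 to 0.24, limma adjusted p = 0.983). These values lay little above the 3.66 to 4.54 of Y-linked genes in the 2 arrays with Xist, a range that stands for absent transcripts here, so a change of a rare Sele transcript could be understated.

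Selplg encodes PSGL-1, the leukocyte ligand of P-selectin, and is the 1 gene of the 9 that marks the blood cell rather than the vessel. Its probe set 17451437 gave 7.15, 7.23 and 7.22 in Cre-negative and 7.49, 8.45 and 8.71 in Cre-positive arrays. Controls were nearly equal (SD 0.05), and Cre-positive replicate 1 lay well below the other Cre-positive arrays. The difference was 1.02 ± 0.28 (limma adjusted p = 0.0341). The call was lost when any single array other than Cre-positive replicate 1 was left out (adjusted p = 0.078 to 0.113), and the difference was 1.38 without that replicate. A second Selplg probe set gave 5.69, 6.08 and 5.97 in Cre-negative and 6.00, 6.16 and 6.57 in Cre-positive arrays, and the difference was 0.33 with overlapping groups. With the mean of the 2 probe sets the difference was 0.67 and did not pass (adjusted p = 0.0535). Nor did it pass with sex as a second factor (0.996, adjusted p = 0.205) or without both replicates numbered 2 (0.92, adjusted p = 0.212).

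Transcripts of myeloid cells moved with Selplg. Of 12 macrophage and myeloid marker genes 9 rose and 0 fell, with a median of 1.34, where 10.7% of all genes were called higher. The list mean was 7.34 to 7.41 in controls and 8.27, 8.82 and 9.38 in Cre-positive replicates 1 to 3. The rises included Cd14, a co-receptor for bacterial lipopolysaccharide (2.56), Cd68 (2.13), the lysozyme gene Lyz2 (2.12), Mrc1 (2.01), Fcgr3 (1.36) and C1qa (1.32). With sex as a second factor 5 of the 12 were called, and without both replicates numbered 2 likewise 5. Over all 22180 genes these settings called 909 and 879 genes higher, against 2372 in the design used. Selplg and the myeloid mean were both lowest in replicate 1 and highest in replicate 3 among Cre-positive arrays. Relative to that mean, Selplg was lower in Cre-positive arrays by -0.43 (exact permutation p = 0.10). Of 10 neutrophil markers 1 rose, Csf3r, the G-CSF receptor (0.81), near the 10.7% of all genes called higher. Means of 6 of the 10 lay below 4.54, and the S100a8 difference was 0.04. None of 7 lymphocyte markers passed limma's test, although 2 were higher and 2 lower when p under 0.05 was not adjusted, the T cell gene Cd3e being at 0.57 and the B cell gene Cd79a at -0.35. With single arrays left out, 3 were called higher without Cre-positive replicate 1 and 2 lower without Cre-negative replicate 2. The part of these cells in the Selplg result was not tested.

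Of the junctional molecules, Cdh5 and Esam fell and Pecam1 did not pass. Cdh5 encodes VE-cadherin, the adherens junction protein of endothelium (probe set 17504399), and stood at 10.46, 10.48 and 10.45 in Cre-negative against 9.85, 9.96 and 10.29 in Cre-positive arrays. The controls were nearly equal (SD 0.02), and every Cre-positive array lay below them, replicate 3 the least. It fell by 0.43 ± 0.12 on the log2 scale, or by 25.9% (limma adjusted p = 0.0381).

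Esam, an immunoglobulin-family molecule of endothelial tight junctions and platelets (probe set 17516074), was at 8.39, 8.32 and 8.34 in Cre-negative and at 8.03, 7.80 and 8.12 in Cre-positive arrays. All 3 Cre-positive values were below the controls, and Esam fell by 0.37 ± 0.10 on the log2 scale, or by 22.4% (limma adjusted p = 0.0378). For Cdh5 and Esam the call held without Cre-positive replicate 3, and not when any other single array was left out (adjusted p = 0.0614 to 0.122). Against the male control array the differences of Icam2, Cdh5 and Esam were -0.41, -0.42 and -0.36, and none of these 3 calls held with sex as a second factor (adjusted p = 0.176 to 0.232). Without both replicates numbered 2 the differences of Icam2, Cdh5 and Esam were -0.51, -0.39 and -0.29 (adjusted p = 0.0599 to 0.245).

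Pecam1, or CD31, is carried by endothelium, platelets and many leukocytes (probe set 17270937). It was at 9.14, 9.02 and 9.01 in Cre-negative and at 8.94, 8.84 and 9.13 in Cre-positive arrays, so the groups overlapped. The difference was -0.09 ± 0.10 with an interval of -0.32 to 0.14 (limma adjusted p = 0.607).

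Each of the 9 genes was also set against other endothelial transcripts, some of which were lower in the Cre-positive arrays (plot of differences). Of 17 measured endothelial lineage genes 4 fell, 0 rose and 13 did not pass, with a median of -0.23, where 11.1% of all genes were called lower and 21.8% in either direction. The falls were those of Ehd3, a glomerular endothelial gene (-1.32 ± 0.17), Kdr, the VEGF receptor 2 gene (-1.18 ± 0.13), Emcn, which encodes endomucin (-0.76 ± 0.18), and Tek, the angiopoietin receptor gene (-0.74 ± 0.13), with limma adjusted p of 0.000715 to 0.0209. Kdr stood at 9.48, 9.55 and 9.47 in Cre-negative and at 8.14, 8.22 and 8.60 in Cre-positive arrays. The 4 genes were least reduced in Cre-positive replicate 3, as Cdh5 was, and without that array 9 of the 17 were called, against 2 with sex as a second factor. The list mean was 8.79, 8.77 and 8.67 in Cre-negative and 8.33, 8.30 and 8.67 in Cre-positive arrays. Cre-positive replicate 3 thus lay just below the lowest control. When limma's p under 0.05 was not adjusted, 6 of the 17 genes were lower and 2 higher.

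**Figure D2:**
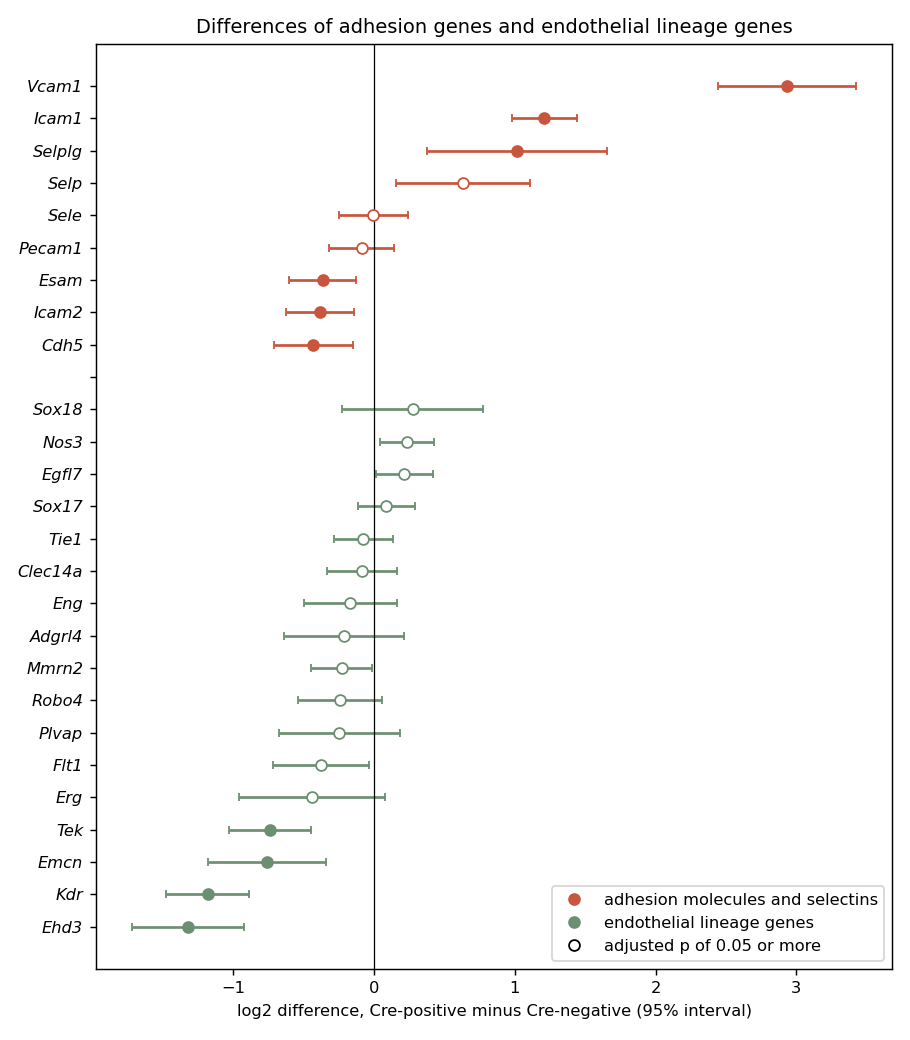
Log2 difference with its 95% interval from limma (horizontal axis) for the 9 adhesion genes (red) and 17 endothelial lineage genes (green), n = 3 arrays per group. Filled circles passed adjusted p under 0.05. Vcam1 (2.94), Icam1 (1.21), Selplg (1.02) and Selp (0.63, which did not pass) lie to the right of every endothelial lineage gene, while Cdh5, Icam2 and Esam lie within their range.

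Within each array, Vcam1 minus the endothelial mean was -1.19, -1.35 and -1.20 in Cre-negative and 1.63, 2.59 and 1.76 in Cre-positive arrays, and the difference was 3.25. For Icam1 the same quantity was -0.78, -0.80 and -0.78 against 0.78, 1.03 and 0.39, a difference of 1.52. Selplg (1.33), Selp (0.94) and Pecam1 (0.22) were also higher relative to that mean, and Cdh5 was lower (-0.12), with no overlap between groups and an exact permutation p = 0.10 for each of these 6 genes. For Icam2 (-0.07), Esam (-0.06) and Sele (0.31) the groups overlapped, with exact p = 0.70, 0.50 and 0.30. These are 9 tests of 3 against 3 arrays, in which 0.10 is the smallest p possible. The endothelial mean itself differed by -0.31 between the groups, so a difference relative to it is not one of the gene alone. Pecam1 alone was at -0.09 and did not pass limma's test.

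**Figure D3:**
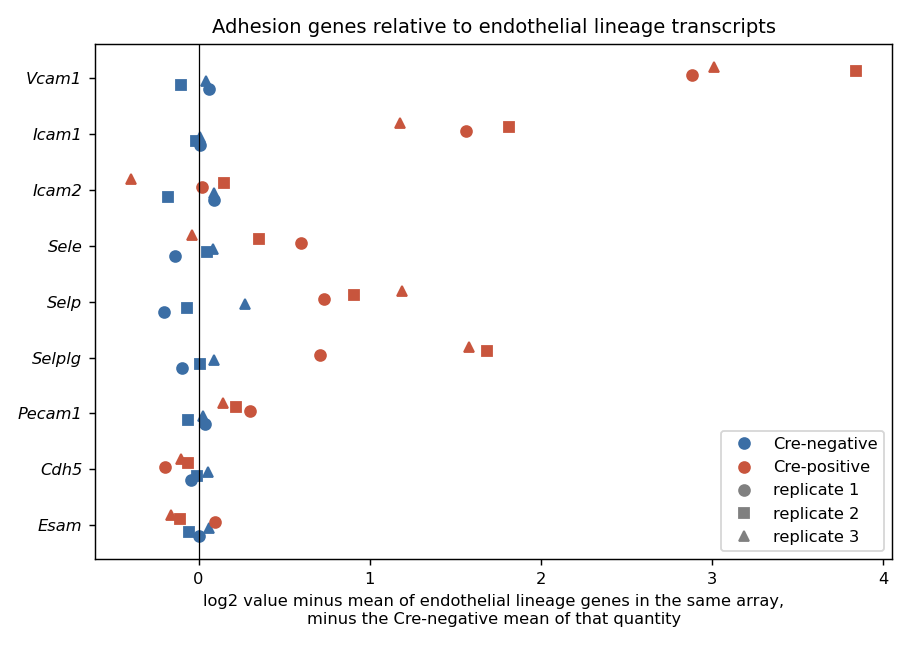
Each of the 9 genes relative to the mean of 17 endothelial lineage genes in the same array, with the Cre-negative mean of that quantity set to 0 (horizontal axis, log2), for Cre-negative (blue) and Cre-positive (red) arrays. Marker shape gives the replicate. Vcam1, Icam1, Selp, Selplg and Pecam1 lie to the right of the controls in each Cre-positive array and Cdh5 to the left, and Icam2, Esam and Sele overlap with them.

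Among integrins and other leukocyte molecules that bind these ligands, 4 of 10 measured genes rose and 0 fell, with a median of 0.41. The shares of all genes were 10.7% called higher and 11.1% lower. Itgam, the alpha chain of Mac-1, a receptor of Icam1, rose by 2.40 ± 0.23, from 5.47, 4.80 and 5.18 in Cre-negative to 7.20, 7.48 and 7.99 in Cre-positive arrays. Its partner Itgb2 rose by 0.93 ± 0.19, Itgax by 1.09 ± 0.25 and Cd44, a hyaluronan receptor that can also carry selectin ligands, by 2.29 ± 0.18 (limma adjusted p = 0.000199 to 0.0195). Cd44 was highest in Cre-positive replicate 2 (7.27, 7.96 and 7.67 in replicates 1 to 3), whereas Itgam, Itgb2 and Itgax were highest in replicate 3. Which cells carried these transcripts was not tested. Both chains of the Vcam1 receptor did not pass, Itga4 at 0.46 ± 0.16 (adjusted p = 0.0815) and Itgb1 at 0.36 ± 0.12 (adjusted p = 0.0745). Nor did Itgal, the alpha chain of LFA-1 (0.33, adjusted p = 0.198). With sex as a second factor 2 genes of this list were called, against 909 of all 22180 genes called higher and 1121 lower.

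Enzymes that build the carbohydrate ligands of selectins moved in both directions. Of 13 measured genes 2 rose, 3 fell and 8 did not pass, with a median of 0.04, where 10.7% of all genes were called higher and 11.1% lower. Gcnt1, the core 2 branching enzyme, fell by 0.997 ± 0.14 on the log2 scale, from 10.41, 10.30 and 10.53 to 9.13, 9.60 and 9.51, and the sialyltransferase genes St3gal6 and St3gal3 fell by 0.50 and 0.42. The sialyltransferase gene St3gal4 (0.45) and the galactosyltransferase gene B4galt1 (0.66) rose. Fut7, a fucosyltransferase of leukocyte selectin ligands, was at 0.14 (limma adjusted p = 0.475). The number of genes called was 3 without Cre-negative replicate 1, 2 without replicate 2 of either group and 3 with sex as a second factor.

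In a list of 15 further adhesion molecules of vessels, 5 rose and 1 fell, with a median of 0.15. Over all genes 10.7% were called higher and 11.1% lower. Those that rose were Mcam, or CD146 (0.62 ± 0.15), Cd47 (0.59 ± 0.09), Nectin2 (0.51 ± 0.11), Vwf, the von Willebrand factor gene whose product is stored with P-selectin (0.46 ± 0.10), and F11r, which encodes JAM-A (0.44 ± 0.11). Jam3 fell by 0.78 ± 0.14 on the log2 scale. Vwf was at 6.41, 6.35 and 6.25 in Cre-negative and at 6.62, 6.87 and 6.90 in Cre-positive arrays (limma adjusted p = 0.0165). Several of these molecules, F11r among them, are also made by epithelia. The number of genes called was 3 without replicate 2 of either group and 2 with sex as a second factor. With that factor 909 of all 22180 genes were called higher and 1121 lower.

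Of 12 partners of endothelial junctions 3 rose, 0 fell and 9 did not pass, where 21.8% of all genes were called in either direction. The 3 were the membrane-to-actin linkers Msn (0.54 ± 0.13) and Ezr (0.37 ± 0.09) and the plakoglobin gene Jup (0.28 ± 0.08), with a list median of 0.17. Whether endothelial or other kidney cells carried these 3 transcripts was not tested. Apart from Jup, the catenin genes of the list did not pass, Ctnnb1 being at 0.04 ± 0.08 (limma adjusted p = 0.788). The number of genes called was 0 without Cre-negative replicate 2, Cre-negative replicate 3 or Cre-positive replicate 2, 1 without replicate 1 of either group and 0 with sex as a second factor.

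Genes of the TNF, interleukin 1 and NF-kappaB route rose in the same arrays. Of 12 measured members 10 rose and 0 fell, with a median of 0.70, where 10.7% of all genes were called higher. The largest rise was that of Tnfaip3, which encodes the NF-kappaB feedback inhibitor A20, from 6.05, 6.09 and 6.02 to 7.26, 7.55 and 7.41 (1.35 ± 0.10). Tnfrsf1b, a TNF receptor gene (1.08 ± 0.14), the NF-kappaB subunit genes Nfkb2 (1.05 ± 0.12) and Rela (0.95 ± 0.10), the inhibitor gene Nfkbia (0.72 ± 0.12) and Tnf itself (0.71 ± 0.11) followed, with limma adjusted p of 0.000132 to 0.0042 for these 6 genes. Il1a (0.26) and Il1b (0.39) did not pass. The count was 10 whichever single array was left out, and 6 with sex as a second factor. That setting called 909 of all 22180 genes higher.

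**Figure D4:**
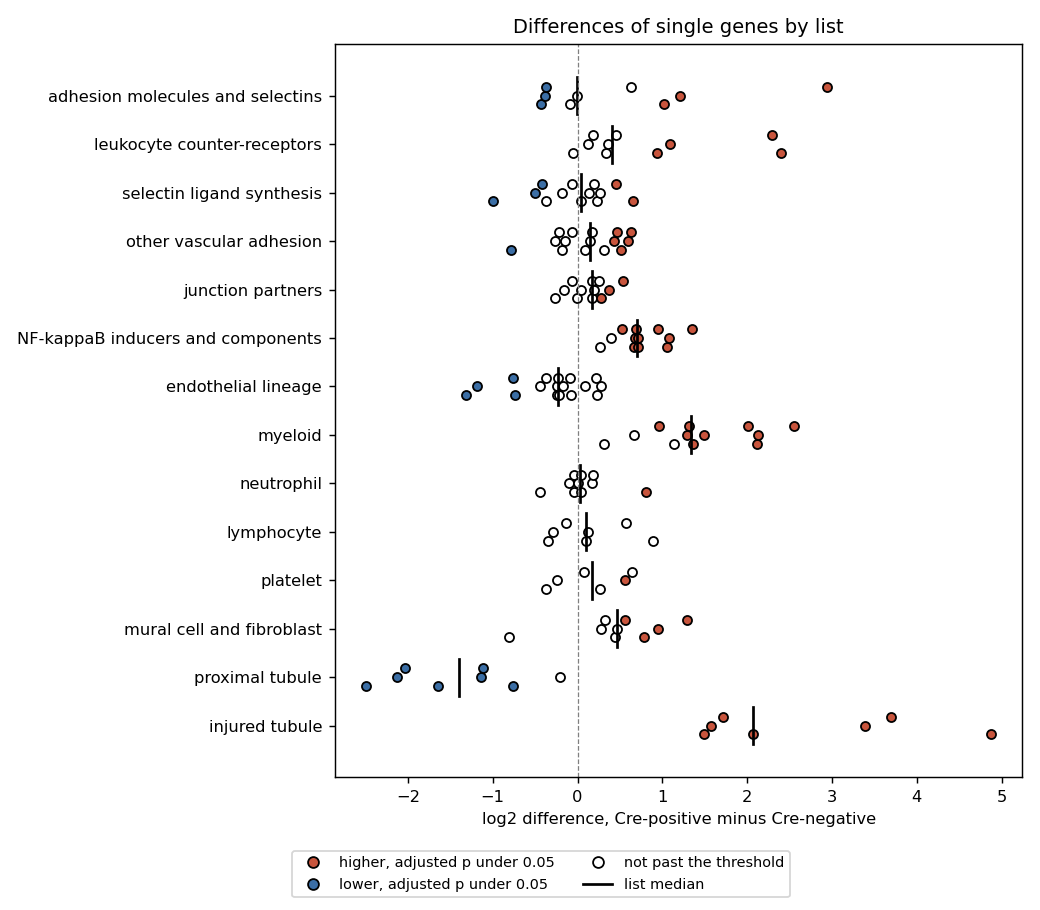
Log2 difference of every measured gene (circles, horizontal axis) in the 9 adhesion genes and 13 lists of related or cell type marker genes, with the list median as a vertical bar. Red and blue circles passed adjusted p under 0.05, and white ones did not. The NF-kappaB list has 10 of 12 genes past the threshold on the higher side, and the endothelial lineage list 4 of 17 on the lower side.

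Markers of other cells that can carry Vcam1 moved in these arrays as well. All 7 measured markers of injured tubule rose, Lcn2 (3.70), Krt20 (3.39), Sox9 (2.07), Krt18 (1.72) and Cdkn1a (1.57) among them, with a median of 2.07 and a list mean of 6.85 to 7.02 in Cre-negative and 9.52 to 9.69 in Cre-positive arrays. Havcr1, the kidney injury molecule gene, rose by 4.88 and, like Vcam1, was highest in Cre-positive replicate 2 (10.32, 11.52 and 10.78 in Cre-positive replicates 1 to 3). Of 8 proximal tubule genes 7 fell, with a median of -1.39. The falls ran from -0.76 for the phosphate transporter gene Slc34a1 to -2.49 for the glucose transporter gene Slc5a2. Beside these 2 lists, 10.7% of all genes were called higher and 11.1% lower. Of 9 mural cell and fibroblast markers 4 rose, Tagln (1.29), Dcn (0.94), Acta2 (0.78) and Pdgfra (0.56), and 0 fell. Of all genes 10.7% were called higher. The list median was 0.47, and the list mean was 9.27 to 9.30 in Cre-negative and 9.44 to 10.14 in Cre-positive arrays. None of the 9 was called with sex as a second factor, with the male arrays alone or without both replicates numbered 2, and the number was 1 without Cre-negative replicate 1 and 2 without Cre-negative replicate 3. Itga8, an integrin gene of mesangial cells, was at -0.81 (limma adjusted p = 0.0627). Platelet markers, which bear on Selp, Pecam1 and Esam, gave 1 rise of 6, where 10.7% of all genes were called higher. That rise, of Itgb3 (0.56), was lost without Cre-negative replicate 1 or with sex as a second factor. The megakaryocyte integrin gene Itga2b was at -0.38 (limma adjusted p = 0.0537). The part of these cells in the results for Vcam1, Selp and Esam was not tested.

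The genes whose profile was most like a given one were those with the smallest root mean square difference over the 6 arrays, after each of 17281 ranked genes was centred on its Cre-negative mean. For Vcam1 they were Aoc1, the diamine oxidase gene (0.13), Ccl2, a monocyte chemoattractant (0.19), Edn1, the endothelin 1 gene (0.26), Pappa2 (0.29) and Serpina10 (0.30), in log2 units of that measure. Aoc1 stood at 7.15, 7.29 and 7.39 in Cre-negative and at 9.67, 10.63 and 10.30 in Cre-positive arrays, the same order of Cre-positive arrays as Vcam1. For Icam1 they were Lrp1 (0.07), the class I histocompatibility gene H2-K1 (0.07), Map3k1 (0.08), Dusp8 (0.09) and Clu, the clusterin gene (0.09). For Pecam1 they were Arnt (0.01), Prkar2a (0.03), Hs3st5 (0.03), Dhx33 (0.03) and Mtss1 (0.03), none of which passed limma's test between groups. Hs3st5 stood at 3.52 to 3.84, within or below the 3.66 to 4.54 that stands for absent transcripts here. With 2 groups of 3 arrays the measure mostly reflects the size of the difference between groups.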

How the data were processed

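Total RNA of 6 mouse kidney samples (Mammalian Total RNA Miniprep Kit) was labelled with biotin by the WT Plus protocol and hybridised to Affymetrix arrays, per the labels' protocols. A single table of log2 values was deposited by the authors, and for it the submitters' processing notes name RMA and Partek without versions. RMA subtracts background, applies quantile normalization and combines the probes of a set. It compresses differences of dim probe sets. That the values are log2 was read from this convention and their range (1.89 to 13.6). The build behind the probe sets is not given in the sources used here. There were 0 columns of other samples.

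Of 41345 rows, 23521 had exactly 1 gene symbol in GEO's platform annotation. The row with the highest mean stood for each of 22180 genes, with no filter on low values. All 9 symbols matched RefSeq by Entrez ID. The main test was limma's lmFit with eBayes (limma 3.58.1, R 4.3.3; two-sided, Benjamini-Hochberg over all genes). Within-array differences had an exact permutation test (SciPy 1.17.1). Its p-values reflect how the 6 samples vary, which may be technical variation. On simulated data of 22180 genes the test found 22% of 100 genes shifted by 0.5, 74% of 50 shifted by 1 and 96% of 50 shifted by 2 (log2), with 2 false calls. No other gene was shifted there, whereas 21.8% of all genes were called in the data, so these rates need not hold for the data. All members are named, and in each list the genes past the threshold, up to 6, or the 2 of smallest p. Itga4, Itgb1, Itgal, Fut7, Ctnnb1, Il1a, Il1b, S100a8, Itga2b, Itga8 and Slc34a1 were named for their roles after their values were seen. For the proximal tubule list the range stands for the other members. The members, lists and tests were chosen with earlier results of these data known. Listed genes that matched no single-symbol row were not analysed here. Gene tables and figures were made with pandas 2.3.3 and matplotlib 3.10.9 in Python 3.11.15.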

Additional observations from a re-analysis of the deposited data

How the results depend on the processing

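Settings varied were a second quantile normalization, median centring, a filter on dim genes, eBayes with trend and robust options, array weights, the mean of a gene's probe sets, the replicate number as a block, sex as a second factor, male arrays alone (where the single control is assumed to vary like the others), both replicates numbered 2 left out, and each array left out in turn. The rises of Vcam1 (2.66 to 3.17) and Icam1 (1.13 to 1.27) kept direction and call in all 16, and relative to the endothelial mean they ran from 2.90 to 3.43 and from 1.36 to 1.69 where that could be computed. Members called higher numbered 2 to 4, without single arrays and under the other settings alike. Members called lower numbered 0 with the replicate block, sex as a second factor, male arrays alone or both replicates numbered 2 left out, and 0 to 2 without single arrays. Of all genes, 4844 were called in the design used, 2372 higher and 2472 lower. Of these calls 49.0% were higher, against 37.3% with median centring. Calls over all genes also changed with these settings. They were 1947 higher and 2030 lower with the replicate block, and 909 and 1121 with sex as a second factor. Without both replicates numbered 2 they were 879 and 974. Without single arrays they ran from 1481 to 2270 higher and from 1660 to 2615 lower. Sele turned to 0.073 without both replicates numbered 2 and ran from -0.099 to 0.049 without single arrays. Selp passed with array weights (0.57, adjusted p = 0.0397), with the replicate block (0.63, adjusted p = 0.02) and without Cre-positive replicate 1. It did not pass in 12 of the 15 settings in which it was tested, sex as a second factor among them. The replicate numbers gave no sign of pairing. Correlations of same-numbered deviations were 0.030, -0.042 and -0.015, against -0.038 to 0.049 for different numbers. With 3 arrays per group these values cannot show that samples were unpaired.

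In the order sex as a second factor, male arrays alone and both replicates numbered 2 left out, genes called in either direction were 2, 2 and 2 counter-receptors, 3, 1 and 1 selectin ligand enzymes, 2, 0 and 1 other adhesion molecules, 0, 0 and 0 junction partners, 6, 3 and 5 NF-kappaB genes and 2, 1 and 2 endothelial genes. Junction partners numbered 5 with the filter on dim genes, 5 with trend and robust options and 1 with the replicate block. Without single arrays the counts were 3 to 6, 2 to 5, 3 to 7, 0 to 2, 10 to 10 and 3 to 9 for these lists in the same order. The cause of single lost calls was not tested. The number of arrays limits precision, and values near 4.54 or below are close to those of absent transcripts.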
